A study of Mus musculus with 204 samples.

Results

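Cholinergic myenteric neurons of the mouse distal colon that carried Tac1, the gene of the substance P precursor, were compared with cholinergic neurons that did not. A cell counted as a neuron where at least 3 of the 5 neuronal genes Elavl3, Elavl4, Snap25, Stmn2 and Syt1 reached 2 on the deposited scale, log2(RPKM + 1). RPKM counts the reads of a gene per kilobase of its length in 1000000 reads of the cell, so a value of 2 stands for 3 RPKM. A neuron counted as cholinergic where Chat, the gene of the enzyme that makes acetylcholine, reached 2. Of the 204 cells of the series, 149 were neurons, and 42 of these had Chat below 2. Among the cholinergic neurons Tac1 was at 5 or more in 29 cells, called Tac1-high here, and below 3 in 73, called Tac1-low. The 5 cells in between were not compared. Tac1 and Chat chose the cells, so their levels are descriptions and not results.

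The tissue was distal colon, taken from VGLUT2-tdTomato mice, in which a red fluorescent protein reports the vesicular glutamate transporter gene Slc17a6. Muscle with its myenteric ganglia was stripped off and digested to single cells, which spent a night in culture before red ones were picked by hand, 1 cell to a tube. Both classes therefore share the reporter, the dissociation and the night in culture. The labels give no treatment, age, sex, animal or culture for a cell, only its plate. Plates 1, 2 and 3 gave 15, 7 and 7 Tac1-high cells and 28, 18 and 27 Tac1-low cells. Differences are between class means within a plate, and since cells are not replicates of a condition, no test was made and no p-value is given.

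Motor neurons of the myenteric plexus fall into excitatory cells, which contract the muscle with acetylcholine and tachykinins such as substance P, and inhibitory cells, which relax it with nitric oxide and peptides. Other cholinergic neurons of the plexus are interneurons, which run along the gut and pass signals between ganglia, or intrinsic sensory neurons. A tachykinin in a cholinergic neuron is a textbook mark of excitatory motor neurons, although some interneurons and sensory neurons also make it.

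Some libraries were too alike to be treated as unrelated cells. In 6 of 6846 pairs of cells of the same plate, the values correlated across genes with a Pearson r between 0.937 and 0.979, while no other pair passed 0.876, 0.786 and 0.798 on plates 1, 2 and 3. Their recovered reads differed by a chi-square per degree of freedom between 6.12 and 27.3, against at least 42.7 in other pairs. That is more than the sampling of reads alone would give. Reads are not molecules here, so the value cannot tell 2 cells from 2 libraries of the same RNA. The pairs were not merged in the main comparison. A single pair was Tac1-high (cells 20 and 50 of plate 1) and 3 pairs were Tac1-low (cells 12 and 59 of plate 1, cells 5 and 36 and cells 16 and 17 of plate 3). With only the deeper cell of each pair, 28 Tac1-high and 70 Tac1-low cells remained. Whether a pair shares a cell or RNA was not tested.

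Median depth was of the same order in both classes, but the shallowest cells were Tac1-low. The median was 3944016 reads and 12285 detected genes in Tac1-high cells, and 4493444 reads and 13109 genes in Tac1-low cells. The lowest values were 1874233 reads and 9935 genes in Tac1-high cells, and 512154 reads and 6079 genes in Tac1-low cells. Cells 5, 6 and 59 of plate 2, all Tac1-low, had 590473, 512154 and 522730 reads. On plates 1, 2 and 3 the median number of genes was 11880, 12801 and 12036 in Tac1-high cells and 12557, 13952 and 13555 in Tac1-low cells, so Tac1-low cells had somewhat more genes on every plate. The part of this gap in the differences below was not tested, apart from the comparison of deeper cells given in the closing section.

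Only 5 cholinergic neurons had Tac1 between the limits, but no clear gap marked either limit. Tac1 was between 5.49 and 10.58 (median 9.37) in Tac1-high cells and between 0 and 2.92 (median 0.43) in Tac1-low cells. The nearest cell inside the upper limit was cell 27 of plate 3 at 5.49, the nearest below the lower limit was cell 52 of plate 1 at 2.92, and the cells in between had 3.58, 3.59, 3.75, 3.76 and 4.67. Tac1-low cells had a median of 4, 6.5 and 5 Tac1 reads on plates 1, 2 and 3. That was 42.4, 66.7 and 32.2 per 1000000 of the plate's Tac1 reads, against 53.0, 41.0 and 19.3 in cells outside the neuron rule. The latter are no clean background, since Tac1 reached 3.94 in 1 of them. The highest Tac1-low cell of each plate had 636, 328 and 354 per 1000000.

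A gene was called higher or lower in Tac1-high cells where its mean differed by at least 1 in the same direction on all 3 plates. It also had to reach 2 in at least 50% of cells of the class with the higher mean, plate by plate. The difference is between means of log2(RPKM + 1), so it understates the fold of low genes. By this rule 261 genes were called (0.741% of 35214 genes with a read), of which 45.6% were higher (0.338% of all genes) and 54.4% lower (0.403%). Some of the 35214 could not be called, since they were at or near 0 in both classes on plate 1 alone. AY036118 had means of 0 there and of 12.54 to 13.85 on plates 2 and 3. AC122844.1 differed by -0.13, 2.91 and 2.75 on plates 1, 2 and 3. Both were named after their values were seen, and why plate 1 lacks such genes was not tested. Of the 6343 genes found in at least 50% of Tac1-high cells on each plate 1.88% were higher, and of the 6754 found in as many Tac1-low cells 2.10% were lower. Counts of called genes in the lists below stand beside these shares, and 0 calls in a short list are no result. The median difference was -0.02 over all genes with a read and 0.13 over genes found in at least 50% of a class on each plate. Across the 7352 genes found in at least 50% of either class, the differences of plates 1 and 2 correlated with a Pearson r of 0.56, those of plates 1 and 3 with 0.55 and those of plates 2 and 3 with 0.51. These are across genes, which are not independent replicates. With 1 cell of each alike pair 276 genes were called, 258 of them among the 261.

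Ffar3, the gene of a receptor for the short-chain fatty acids that gut bacteria make, led the higher genes. It lies on chromosome 7 from 30854330 to 30856178 on the minus strand (mm10). It was between 0 and 8.50 (median 6.55) in Tac1-high cells and between 0 and 4.96 (median 0) in Tac1-low cells. It reached 2 in 27 of 29 Tac1-high cells (93.1%, 95% interval 77.2 to 99.2%) and in 2 of 73 Tac1-low cells (2.74%, interval 0.334 to 9.55%). Almost every Tac1-high cell thus carried the transcript, and it was in 0 of the 55 cells outside the neuron rule, which allows a share of up to 5.45% there. The means were 5.66 ± 2.13, 6.85 ± 1.15 and 6.05 ± 3.06 (SD over 15, 7 and 7 cells) in Tac1-high cells of plates 1, 2 and 3, and 0.18 ± 0.54, 0.03 ± 0.10 and 0.22 ± 0.95 (SD over 28, 18 and 27 cells) in Tac1-low cells. The intervals and SDs describe counting error and the spread between cells, not animals. Of the other fatty acid receptor genes, Ffar2 was in 5 of 29 Tac1-high and 0 of 73 Tac1-low cells, which allows up to 4.11% of the Tac1-low class, while Olfr78, an olfactory-type receptor for the same acids, was in 22 of 29 and 49 of 73 cells, with medians of 4.16 and 4.39.

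**Figure D1:**
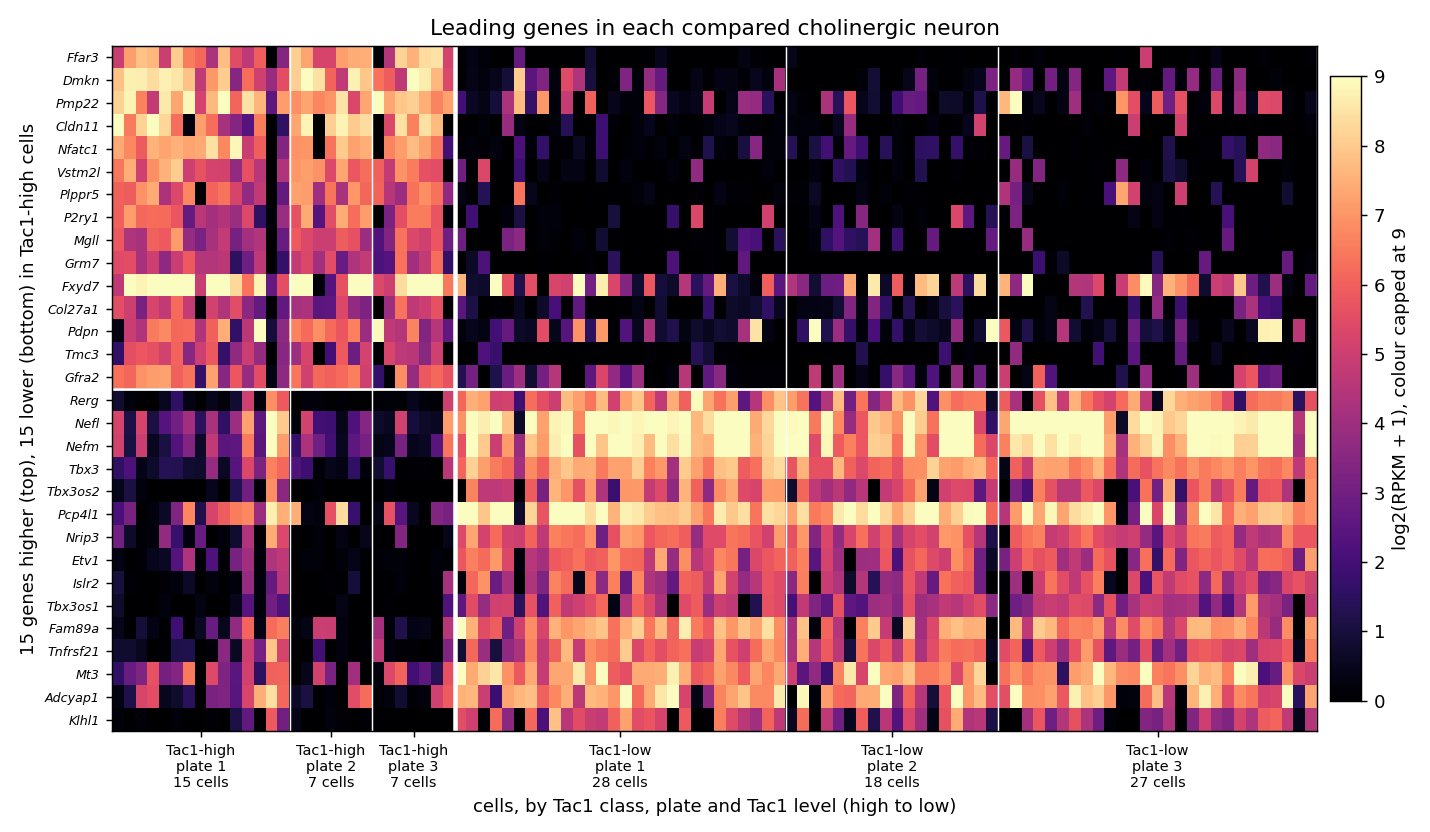
Heat map of log2(RPKM + 1) (colour, capped at 9) of the 15 leading higher and 15 leading lower genes (rows) in the 29 Tac1-high and 73 Tac1-low cells (columns, by plate and falling Tac1). The upper block is bright at left and the lower block at right. Exceptions lie at the right edge of the Tac1-high cells of plates 1 and 3 and at the left edge of those of plate 3, among others.

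The 250 bases before the Ffar3 start are shown because this gene led the comparison, beside those before Tac1, which chose the cells. Both are from RefSeq on GRCm38.p6, the assembly that mm10 names, at chr7:30856179-30856428 on the minus strand for Ffar3 and at chr6:7554811-7555060 on the plus strand for Tac1. Capitals mark TGACGTCA, the palindromic cAMP response element.
Ffar3: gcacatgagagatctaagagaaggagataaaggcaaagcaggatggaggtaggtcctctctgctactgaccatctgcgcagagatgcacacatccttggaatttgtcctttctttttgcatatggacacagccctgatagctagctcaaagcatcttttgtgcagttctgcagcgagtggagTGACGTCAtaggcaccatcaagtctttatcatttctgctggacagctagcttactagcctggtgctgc
Tac1: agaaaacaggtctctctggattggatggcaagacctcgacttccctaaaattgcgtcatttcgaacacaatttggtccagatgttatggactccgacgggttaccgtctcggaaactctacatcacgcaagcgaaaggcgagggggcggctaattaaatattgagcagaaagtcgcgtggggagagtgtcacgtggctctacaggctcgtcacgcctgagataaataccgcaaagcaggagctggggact
The element begins at -68 from the Ffar3 start, and these letters are not in the Tac1 window.

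The same window was searched in every gene that RefSeq gives a promoter for, on both strands, for TGACGTCA, for TGGAAA (the core bound by NFAT factors) and for TCACACCT (a T-box core). TGACGTCA was in 8 of the 91 higher genes with a window (8.79%) and in 3 of the lower genes with one (2.86%), against 1.62% of all 27025 genes and 3.57% of the 4647 genes found in at least 50% of Tac1-high cells and 3.41% of the 4927 found in as many Tac1-low cells. TGGAAA was in 11.0% of higher and 21.0% of lower genes, against 18.7% of all genes and 13.6% and 13.8% of those found in at least 50% of Tac1-high and of Tac1-low cells. TCACACCT was in 0 of either set, against 1.14% of all genes and 0.560% and 0.487% of the found ones. The 8 higher genes with TGACGTCA, named after their values were seen, have it in these surroundings, 10 bases on each side.
Btg2 (chr1:134079304-134079331, minus): ttcccaataaTGACGTCAgtgagcgatg
Ffar3 (chr7:30856229-30856256, minus): gcgagtggagTGACGTCAtaggcaccat
Ing3 (chr6:21949516-21949543, plus): accggccggtTGACGTCAtcgctgcaga
Kctd8 (chr5:69341720-69341747, minus): gttcggagctTGACGTCAgtgccacctc
Msi2 (chr11:88718429-88718456, minus): acggggtgcgTGACGTCAccgcattggt
Peg3 (chr7:6730580-6730607, minus): ctgactccgtTGACGTCAactccgtgcc
Rab11fip3 (chr17:26069551-26069578, minus): cacggcgtgcTGACGTCAcgcgcgacgg
Stk38l (chr6:146724856-146724883, plus): tgggtgcgtaTGACGTCAggggcgaccc
A match is a run of letters and no evidence of binding.

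Other receptor genes stood among the 15 leading higher genes. P2ry1, the gene of an ADP receptor, was between 0 and 7.44 (median 5.56) in Tac1-high cells and between 0 and 5.33 (median 0) in Tac1-low cells, with differences of 3.95, 5.09 and 3.73 on plates 1, 2 and 3. Of its exon bases 23.1% overlap an unnamed antisense gene, and without the strand setting reads of both cannot be told apart. Grm7, which encodes a presynaptic metabotropic glutamate receptor, was between 0 and 6.36 (median 4.46) in Tac1-high cells and between 0 and 2.78 (median 0) in Tac1-low cells. It was found in 25 of 29 and 5 of 73 cells. Gfra2, the gene of the neurturin receptor, was between 0.09 and 7.27 (median 6.02) in Tac1-high cells and between 0 and 6.02 (median 0.25) in Tac1-low cells, and the classes overlapped more here, since 29 of 73 Tac1-low cells reached 2 against 25 of 29 Tac1-high cells.

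Nfatc1, a transcription factor that calcium signals send to the nucleus through calcineurin, lies on chromosome 18 from 80606205 to 80713071. It was between 0 and 8.88 (median 7.00) in Tac1-high cells and between 0 and 3.69 (median 0.11) in Tac1-low cells, with differences of 5.84, 5.28 and 4.75 on plates 1, 2 and 3. Outside the neuron rule 28 of 55 cells reached 2, so the gene is not limited to neurons in these data.

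The remaining leading genes encode membrane, junction and matrix proteins and enzymes. Dmkn, the gene of the secreted protein dermokine, was in 29 of 29 Tac1-high and 21 of 73 Tac1-low cells, between 3.47 and 9.25 (median 7.85) in Tac1-high cells and between 0 and 8.08 (median 0.24) in Tac1-low cells. Cldn11, a tight junction claudin, was in 23 of 29 and 5 of 73 cells, with medians of 6.62 and 0. Mgll, the lipase that breaks down the endocannabinoid 2-arachidonoylglycerol, was in 28 of 29 and 11 of 73 cells. The other 7 were Pmp22 (a peripheral myelin protein), Vstm2l, Plppr5, Fxyd7 (a regulator of the sodium pump), Col27a1 (a fibrillar collagen), Pdpn (podoplanin) and Tmc3. Over the 15 genes, 22 to 29 of 29 Tac1-high cells and 2 to 47 of 73 Tac1-low cells reached 2. Pmp22 was also in 40 of 55 cells outside the neuron rule, with a median of 4.54 there, while Ffar3, Dmkn, Grm7 and Tmc3 were in 0. Of the exon bases of Tmc3, 43.9% overlap an antisense gene.

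Rerg, the gene of a Ras-family protein, led the 15 leading lower genes, which also held neurofilaments, transcription factors and a peptide. Tbx3, a T-box transcription factor on chromosome 5 from 119670669 to 119684724, was between 0 and 6.63 (median 1.31) in Tac1-high cells and between 0.35 and 8.40 (median 6.77) in Tac1-low cells. It reached 2 in 9 of 29 Tac1-high cells (31.0%, interval 15.3 to 50.8%) and in 72 of 73 Tac1-low cells (98.6%, interval 92.6 to 99.97%). The means were 2.49 ± 2.10, 0.96 ± 0.91 and 1.05 ± 1.67 in Tac1-high cells of plates 1, 2 and 3, and 6.94 ± 1.09, 6.63 ± 0.89 and 6.23 ± 1.41 in Tac1-low cells. Nearly all Tac1-low cells therefore carried Tbx3, and 7 of the 9 Tac1-high cells with it were on plate 1. Outside the neuron rule 32 of 55 cells reached 2, with a median of 2.55. The genes beside it, Tbx3os1 and Tbx3os2, were in 4 and 3 of 29 Tac1-high cells and in 66 and 62 of 73 Tac1-low cells. They lie on the other strand, and Tbx3os1 shares exon bases with Tbx3.

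Etv1, an ETS transcription factor that is also used as a marker of inhibitory motor neurons, was between 0 and 4.71 (median 0.16) in Tac1-high cells and between 0 and 7.37 (median 5.74) in Tac1-low cells. It reached 2 in 7 of 29 Tac1-high cells (24.1%, interval 10.3 to 43.5%), all of them on plate 1, and in 68 of 73 Tac1-low cells (93.2%, interval 84.7 to 97.7%). Tbx2, the close relative of Tbx3, went the other way. It was between 0 and 6.47 (median 3.13) in Tac1-high cells and between 0 and 6.43 (median 0) in Tac1-low cells, and was found in 18 of 29 and 15 of 73 cells. Of the 38 listed transcription factors Tbx2, Bnc2 and Nfatc1 were higher and Tbx3, Etv1 and Zfhx4 lower, around a list median of -0.03. Of all genes with a read 0.741% were called.

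Nefm and Nefl, the genes of the medium and light neurofilament chains that widen axons, were lower by 4.48, 5.18 and 6.25 and by 4.51, 5.32 and 6.31 on the 3 plates. Nefm was between 0.37 and 10.68 (median 2.52) in Tac1-high cells and between 3.85 and 11.41 (median 8.41) in Tac1-low cells, and every one of the 73 Tac1-low cells reached 2. The genes overlap on opposite strands, and 1108 exon bases, 32.8% of Nefl and 19.2% of Nefm, are shared, so their counts are not separate evidence. Nefh, the heavy chain gene, lies elsewhere and had medians of 2.14 and 2.51, with differences of -0.34, -0.63 and -0.69 that missed the limit. Of 12 listed neurofilament and cytoskeleton genes, Nefm and Nefl were the only ones past it, around a median of 0.08.

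Adcyap1, the gene of the neuropeptide PACAP, was between 0 and 8.43 (median 1.18) in Tac1-high cells and between 0 and 10.52 (median 6.90) in Tac1-low cells. It reached 2 in 13 of 29 Tac1-high and 64 of 73 Tac1-low cells. The receptor gene Adcyap1r1, named after its values were seen, was lower too, by 3.07, 3.26 and 1.21. Beside Rerg the other leading lower genes were Pcp4l1, Nrip3, Islr2 (a membrane protein of growing axons), Fam89a, Tnfrsf21 (death receptor 6), Mt3 (a metallothionein) and Klhl1 (a kelch-like protein). Over the 15 genes, 3 to 19 of 29 Tac1-high cells and 55 to 73 of 73 Tac1-low cells reached 2.

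The name excitatory motor-like was set against marker lists. Of 12 excitatory motor markers, Gfra2, Nfatc1, Bnc2 and Cldn11 were higher and 0 were lower, with a list median of 0.74. Of all genes with a read 0.338% were higher, and of those found in at least 50% of Tac1-high cells on each plate 1.88%. Lamc3 leaned the same way, in 16 of 29 Tac1-high and 1 of 73 Tac1-low cells, but missed the detection limit on at least 1 plate. Other markers of the list did not follow. Penk, the enkephalin precursor gene, was between 4.11 and 14.18 (median 11.77) in Tac1-high cells and between 2.73 and 14.12 (median 12.40) in Tac1-low cells. Since it also reached 2 in 54 of 55 cells outside the neuron rule, with a median of 3.63, the lowest cells of both classes cannot be told from that background. Calb2, the calretinin gene, was in 10 of 29 Tac1-high and 19 of 73 Tac1-low cells, with medians of 0.73 and 0.74. Htr4, a serotonin receptor gene, was in 2 of 29 and 34 of 73 cells, and its differences lay between -1.68 and -1.44. Ndufa4l2 was in 1 of 29 and 0 of 73 cells, which allows up to 4.11% of the Tac1-low class, and Oprk1 in 1 of 29 and 3 of 73. Of the 12 markers 4 thus passed the limits in the direction of the label. Counting these 4, 7 were higher on all 3 plates, and 1 was lower on all 3. The lists were chosen with earlier results of these data known, so the count is no independent check of the name.

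Markers of inhibitory motor neurons and interneurons leaned to the Tac1-low cells, those of intrinsic sensory neurons little. Of 8 inhibitory motor markers 0 were higher and Cartpt and Etv1 lower, with a list median of -1.09. Of all genes with a read 0.403% were lower. Cartpt, the gene of the CART peptide, was between 0.43 and 10.55 (median 5.16) in Tac1-high cells and between 0.98 and 12.75 (median 8.87) in Tac1-low cells. Nos1, the neuronal nitric oxide synthase gene, reached 2 in 1 of 29 Tac1-high and 29 of 73 Tac1-low cells, and Vip in 2 of 29 and 30 of 73. Both missed the detection limit, so they are given as counts. The highest Nos1 level of a Tac1-low cell was 4.71 (cell 24 of plate 3). In neurons with Chat below 2 it reached 7.59 (cell 32 of plate 3), so the count does not give the level. Of 8 interneuron markers Ddc and Dbh, enzymes of amine synthesis, were lower and 0 were higher (median -0.74). Dbh was in 6 of 29 Tac1-high and 53 of 73 Tac1-low cells. Of 10 intrinsic sensory markers 0 passed in either direction (median -0.39). The medians of the smooth muscle (-0.69) and fibroblast (-0.42) lists lay further below 0. Calcb and Nmu were in 3 and 2 of 29 Tac1-high cells and in 13 and 8 of 73 Tac1-low cells. When the cells with Nos1 were left out 273 genes were called, 214 of them among the 261.

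**Figure D2:**
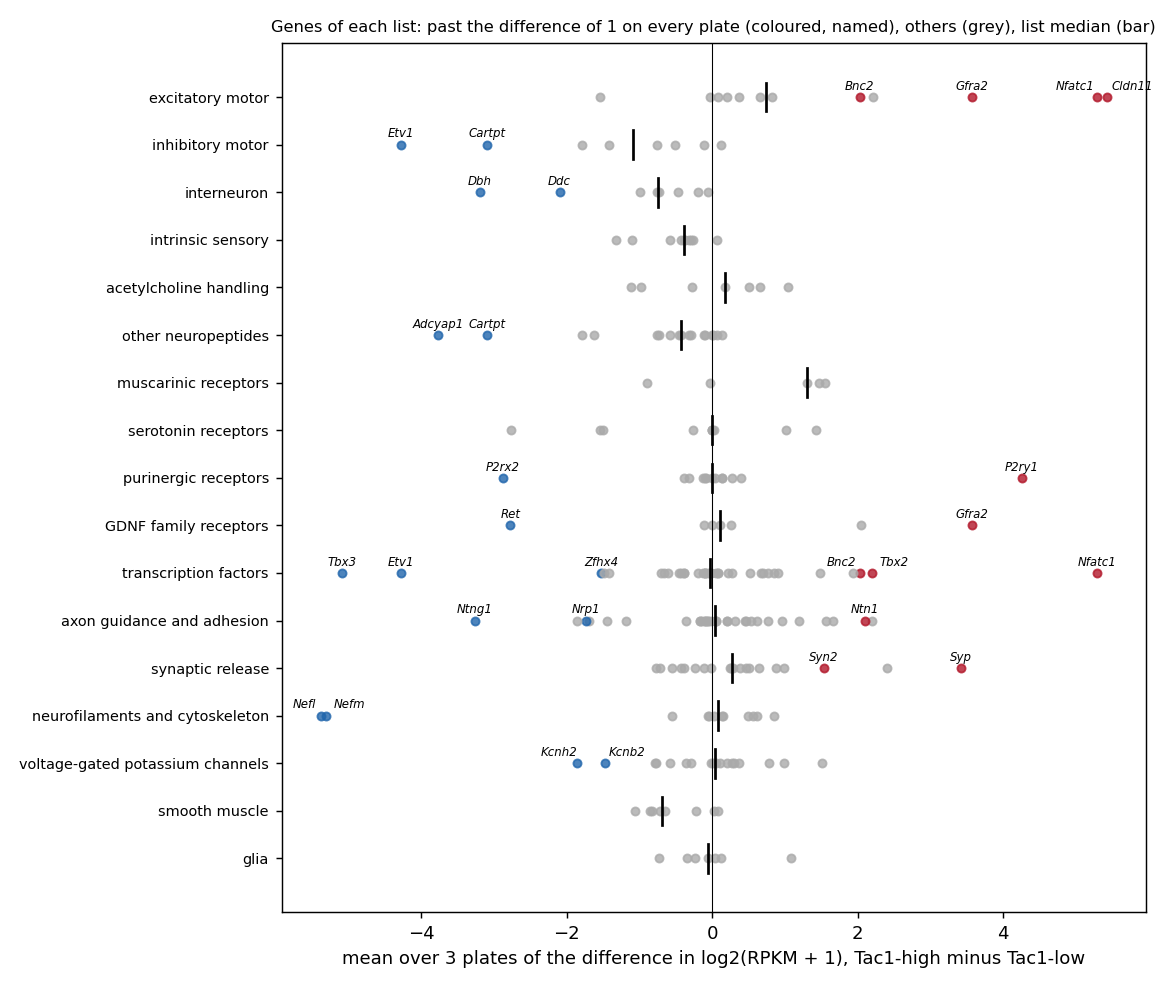
Mean over the 3 plates of the difference in log2(RPKM + 1), Tac1-high minus Tac1-low, for each gene (point) of 17 lists, with the list median as a bar. Genes called higher (red) or lower (blue) are named; the inhibitory motor and interneuron lists hold only blue calls and the excitatory motor list only red ones.

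Genes of acetylcholine handling gave no calls. Slc18a3, the vesicular acetylcholine transporter gene, reached 2 in all 29 and all 73 cells, with medians of 7.68 and 6.95, and Slc5a7, the choline transporter gene, had medians of 5.63 and 5.41. Of the 7 genes of this list 0 passed in either direction, where 0.741% of all genes with a read were called. In so short a list 0 calls are no result. Chat itself, which chose the cells, was at a mean of 6.17, 5.97 and 6.19 in Tac1-high cells of plates 1, 2 and 3 and of 5.39, 5.34 and 5.10 in Tac1-low cells. Bche, a second cholinesterase gene, was in 1 of 29 Tac1-high and 25 of 73 Tac1-low cells.

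Slc17a6, whose promoter activity the reporter is meant to show, was the only glutamate transporter or metabolism gene of 11 past the limit. It was between 0 and 7.02 (median 2.45) in Tac1-high cells and between 0 and 6.60 (median 3.76) in Tac1-low cells, and reached 2 in 16 of 29 Tac1-high cells (55.2%, interval 35.7 to 73.6%) and in 61 of 73 Tac1-low cells (83.6%, interval 73.1 to 91.2%). The differences were -1.14, -1.11 and -1.95 on plates 1, 2 and 3. On plate 2 the difference was -0.86 without cell 30, short of the limit of 1. Both classes carried the transcript, and its share differed by plate, with 11 of 15, 3 of 7 and 2 of 7 Tac1-high cells and 27 of 28, 12 of 18 and 22 of 27 Tac1-low cells. Of 15 ionotropic glutamate receptor genes 0 passed, although Gria1 reached 2 in 0 of 29 Tac1-high cells, which allows up to 10.3%, and in 29 of 73 Tac1-low cells. Of 8 metabotropic ones Grm7 alone was higher.

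Receptors for other transmitters split by gene, where 0.741% of all genes with a read were called. Of 13 purinergic receptor genes P2ry1 was higher and P2rx2, an ATP-gated channel gene, lower (by 2.07, 3.62 and 2.96), found in 7 of 29 Tac1-high and 53 of 73 Tac1-low cells. Of 10 serotonin receptor genes 0 passed. Htr2b, frequent in both classes, differed by 0.27, 1.11 and 1.68 and missed the limit on plate 1. Htr3a, the main subunit gene of the serotonin-gated channel, reached 2 in 1 of 29 Tac1-high cells (3.45%, interval 0.0873 to 17.8%) and in 37 of 73 Tac1-low cells (50.7%, interval 38.7 to 62.6%). Of 5 muscarinic receptor genes 0 passed, with the highest median of any list, 1.30. Chrm1 had medians of 6.22 and 4.70, Chrm4 was in 18 of 29 Tac1-high and 20 of 73 Tac1-low cells, and Chrm3 in 12 of 29 and 3 of 73. Of 9 nicotinic and 12 GABA receptor genes 0 passed.

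Receptors for growth factors split as well. Gfra2 was higher, while Ret, the signalling subunit that the GDNF family receptors share, was lower by 3.63, 2.56 and 2.14. Ret was between 0 and 6.55 (median 1.29) in Tac1-high cells and between 0.33 and 7.89 (median 5.48) in Tac1-low cells. Gfra4 was in 21 of 29 and 23 of 73 cells, with differences of 3.06, 2.44 and 0.66, and Gfra1 was rare in both classes, in 4 of 29 and 6 of 73. Ngfr, the p75 neurotrophin receptor gene, was in 7 of 29 Tac1-high and 62 of 73 Tac1-low cells.

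Of 8 pan-neuronal genes Gap43 was lower, around a median of 0.06. Among genes of release and peptides, Syp, the synaptic vesicle protein synaptophysin, was higher by 3.29, 4.81 and 2.16. It was between 0.52 and 8.63 (median 6.52) in Tac1-high cells and between 0 and 7.25 (median 3.15) in Tac1-low cells. Syn2, a synapsin gene, was the other of 20 listed release genes past the limit, and 0 were lower. Of the exon bases of Syp, 16.8% overlap an antisense gene. Of 11 peptide processing genes Vgf was lower, and of 17 other neuropeptide genes Adcyap1 and Cartpt were. Of 13 tachykinin and opioid genes other than Tac1, 0 passed.

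Some ion channel and guidance genes were called, where 0.741% of all 35214 genes with a read were called. Of 18 voltage-gated potassium channel genes Kcnb2 and Kcnh2 were lower, and of 16 other potassium channel genes Kcnk10 was lower. On plate 2 Kcnh2 differed by -0.99 without cell 43, just short of the limit. Of 12 sodium channel genes, 15 calcium and HCN channel genes and 20 mechanosensitive, TRP and acid-sensing channel genes 0 passed. Of 33 axon guidance and adhesion genes, Ntn1, the gene of the guidance cue netrin 1, was higher and Nrp1, a semaphorin receptor gene, and Ntng1 lower. Ntng1 was in 4 of 29 Tac1-high and 65 of 73 Tac1-low cells. Of 12 calcium-binding protein genes Hpcal1 was higher.

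Dissociation and a night in culture can start an injury programme in neurons, so its genes were read in both classes. Gap43, a growth cone protein gene, was lower by 1.23, 1.43 and 1.19 but reached 2 in every cell of both classes, with medians of 7.71 and 9.11, against 29 of 55 cells and a median of 2.17 outside the neuron rule. On plate 2 the difference was -0.72 without cell 27. Hspb1, a small heat shock protein gene, was in 22 of 29 Tac1-high and 72 of 73 Tac1-low cells, and Ecel1, a protease gene of injured neurons, in 12 of 29 and 56 of 73. Gadd45a, a stress-induced gene, was higher, with medians of 5.38 and 3.10. Of the 13 measured genes of the list 1 was therefore higher and 3 lower, around a median of 0.22, where 0.741% of all genes were called. Of 12 immediate early genes 0 passed (median -0.36), and Fos was in 8 of 29 Tac1-high and 39 of 73 Tac1-low cells.

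The 30 leading genes were then read cell by cell. Since they were chosen on these cells, this describes how evenly the cells carry them. Tac1-high cells had a median of 15 of the 15 higher genes at 2 or more (range 3 to 15) and a median of 3 of the 15 lower genes (range 0 to 15). Tac1-low cells had medians of 3 (range 0 to 7) and 15 (range 6 to 15). At least 8 higher genes were present in 28 of 29 Tac1-high and 0 of 73 Tac1-low cells, and at least 8 lower genes in 6 of 29 and 71 of 73. A split of the classes on these genes follows from how the genes were chosen. All 15 higher genes were present in 16 Tac1-high cells.

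The exceptions were mostly Tac1-high cells of plate 1. Cells 20, 50, 64 and 66 of plate 1 and cell 27 of plate 3 carried at least 8 genes of both sets. Cells 20 and 50, which form the alike pair, had 13 and 15 higher genes and 15 lower genes each, with Tac1 at 5.68 and 7.32, 15858 and 15813 detected genes against a class median of 12285, and 2 and 4 marker lists of non-neuronal cells. Cell 27 of plate 3 had the lowest Tac1 of its class. Cell 29 of plate 1 was the only Tac1-high cell with fewer than 8 higher genes. It had 3 higher and 15 lower genes, Tac1 at 5.88, Slc17a6 at 7.02, Nefm at 10.68 and no Ffar3 or Nfatc1. Leading higher genes were also missing in cells with high Tac1. Cell 53 of plate 3, with the highest Tac1 (10.58), had 8 higher and 2 lower genes, Ffar3 at 0.14 and Nfatc1 at 0.04. Cell 30 of plate 2, with Tac1 at 9.66, had 11 higher and 3 lower genes and Nfatc1 at 0. With the 5 cells of both sets left out 332 genes were called, 246 of them among the 261.

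**Figure D3:**
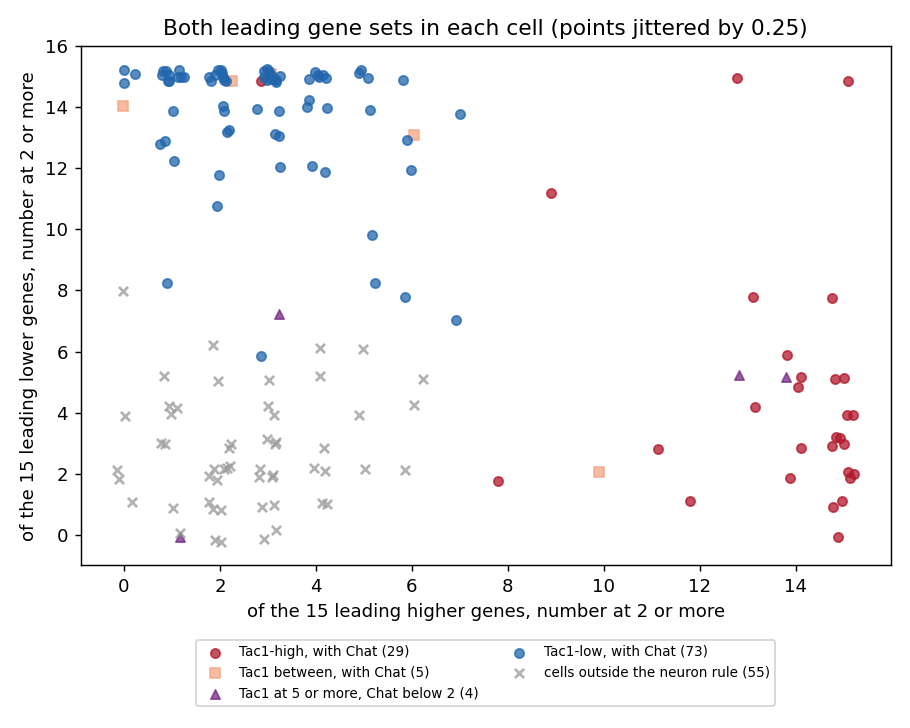
Number of the 15 leading higher genes (x axis) and of the 15 leading lower genes (y axis) at 2 or more in each cell, with points jittered by up to 0.25 and coloured by class. Most Tac1-high cells lie at lower right and most Tac1-low cells at upper left. At least 8 genes of both sets are present in 5 Tac1-high cells, and 1 other Tac1-high cell lies among the Tac1-low cells.

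The cells with intermediate Tac1 were not intermediate in these genes. Of the 5, cells 2 and 16 of plate 1, cell 39 of plate 2 and cell 18 of plate 3 had 0 to 6 higher and 13 to 15 lower genes. Cell 22 of plate 2, with Tac1 at 3.76, had 10 higher and 2 lower genes.

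Some of the called genes were neighbours, and whether more often than their number alone would give was not tested. Among the 259 called genes with a position, 14 pairs lay within 100000 bases of each other, and 13 of the pairs had the same direction. Over all 9603 such pairs of the 7170 genes with a position found in at least 50% of either class, 0.146% had both genes called, where 3.61% of the genes were called, and 55.2% had mean differences of the same sign. Of the 13 pairs 3 overlap (Nefm with Nefl, Tbx3 with Tbx3os1, and Pitpnc1 with Gm11716), and 3 pairs are the single locus of Tbx3, Tbx3os1 and Tbx3os2. Dmkn and Ffar3 are 73267 bases apart on chromosome 7, and both stood among the 15 leading higher genes. Other pairs, named after their values were seen, were Cldn11 with Slc7a14, Tmc3 with Stard5, Mgll with Podxl2, and Syp with Plp2 among the higher genes, and Ano5 with Slc17a6 among the lower ones. Sord and Shf went opposite ways.

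Markers of non-neuronal cells were read in both classes. A cell carried a list where at least 50% of its markers reached 2. The smooth muscle list of 8 genes was carried by 2 of 29 Tac1-high and 16 of 73 Tac1-low cells, with summed levels between 0.566 and 1259 RPKM (median 11.3) and between 1.03 and 6317 RPKM (median 17.8), against a median of 305.6 RPKM outside the neuron rule. The fibroblast list was carried by 0 of 29 Tac1-high cells, which allows up to 10.3%, and by 8 of 73 Tac1-low cells (11.0%). Of its 6 markers 5 were below 2 in every Tac1-high cell, yet its summed level reached 1160 RPKM (median 0.176) in Tac1-high cells and 459.1 RPKM (median 0.600) in Tac1-low cells. The glial list was carried by 2 of 29 and 2 of 73, the leukocyte list by 2 and 1, the epithelial list by 3 and 7, the endothelial list by 1 and 5, the interstitial cell list by 2 and 1 and the mesothelial list by 1 and 3. None of the genes of these 8 lists was called in either direction. Without the cells that carried any of the lists 339 genes were called, 209 of them among the 261. The part of this RNA in single differences was not tested.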

How the data were processed

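The authors deposited 1 table of the series with a log2 value per gene and cell. Per the submitters' processing notes the build was mm10, while aligner, counter and use of strand were not given in the sources used here. That the deposited log2 values are log2(RPKM + 1) was read from the values: in 31313 of 35662 testable genes nearly all values gave whole reads, within 0.02 reads, with GENCODE M21 exon lengths. Cells had 453110 to 14310871 reads (median 4065063). Without molecular identifiers reads are not molecules, so exact Clopper-Pearson 95% intervals cover counting error only.

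Class means of log2(RPKM + 1), that is with a pseudocount of 1, were subtracted plate by plate, given 5 or more cells in both classes, with Python 3.11.15, numpy 2.4.6, pandas 2.3.3 and scipy 1.17.1. The steps were tested on simulated data. The members and the 40 gene lists (13 of markers, 27 of functions, 434 genes) were chosen with earlier results of these data known. Named genes are the 15 per direction with the largest smallest-plate difference, leaving out mitochondrial, ribosomal, Rik and Gm genes, the 2 members of each list with the largest mean difference of the same sign on all plates, and Slc17a6, Nos1, Penk, Calb2, Gfra2, Slc18a3, Slc5a7 and Chat. Others were named after their values were seen. Sequencer indices run through plates 2 and 3 as 1 series, while plate 1 has its own. Alternatives changed the scale, filters, limits and cells.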

Additional observations from a re-analysis of the deposited data

Results flagged for a closer look

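Leading higher genes also appeared in neurons that entered no comparison, in larger numbers than in any cell outside the neuron rule, where the highest was 6 of 15. Cells 31 and 39 of plate 1 had 14 and 13 of the 15 genes, with Tac1 at 6.79 and 6.70 and Chat at 1.96 and 1.77, just below its limit of 2. They form an alike pair (Pearson r of 0.970) and carried 4 non-neuronal marker lists each. Cell 22 of plate 2, with Tac1 between the limits, had 10. Cells 4 and 31 of plate 2 and cells 34 and 54 of plate 3 had 7 each. The 2 other neurons with Tac1 at 5 or more and Chat below 2 had few, with 3 in cell 44 of plate 2 and 1 in cell 23 of plate 3. No explanation was tested.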

How the results depend on the processing

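No paired analysis was possible because cell numbers pair no cells across plates and the differences come from no test. Of 35214 genes with a read, 0.338% were called higher and 0.403% lower. These shares moved to 0.562% and 0.622% with a pseudocount of 0.1, to 0.0880% and 0.148% with one of 10, and to 0.102% and 0.148% with a difference of 2 as the limit. Cells with at least their plate's median gene number gave 0.559% and 0.772%, over plates 1 and 3 since plate 2 kept 4 Tac1-high cells. Some of the 261 main calls were lost in these deeper cells, although only 2 plates had to meet the limit. With all cells of plates 1 and 3, all 261 were kept. The raised shares therefore do not show that the main calls hold in deeper cells. Without cells with a non-neuronal list 0.622% were lower. Log2 ratios of mean RPKM, no detection filter, detection at 1 or 3, Tac1 limits of 6 and 1 or of 3 alone, Chat at 4, all 5 neuronal markers and no cells with Nos1 gave 0.239 to 0.50% higher and 0.287 to 0.585% lower. Leaving out 1 plate in turn, so that fewer plates had to meet the limit, gave 0.440 to 1.09% higher and 0.625 to 0.665% lower. The highest shares came without plate 1 for higher genes and without plate 2 for lower genes. Of 765 differences (45 named genes past the limit under 17 settings) 0 changed sign and 198 moved by at least the SD between plates, as did 92 of 600 list medians. Each of these genes kept its sign on every plate without any 1 cell. By 1 cell, Gap43 moved on plate 2 to -0.72 from -1.43 (cell 27) and Vgf on plate 3 to -1.14 from -1.84 (cell 60). Slc17a6 moved on plate 2 to -0.86 from -1.11 (cell 30) and Kcnh2 to -0.99 from -1.37 (cell 43). Without that cell Gap43, Slc17a6 and Kcnh2 thus missed the limit of 1, so these calls rest on 1 cell. With no animals named, the plates cannot show how far mice differ, and low levels near 1 read set how far a gene can be seen to be lower. Keeping 1 cell of each alike pair and leaving out cells with both sets were chosen after seeing the data.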
